A study of Drosophila melanogaster with 30 samples.

Results

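The genes elbow B (elB) and no ocelli (noc) are neighbouring paralogs on chromosome arm 2L of Drosophila melanogaster. Both were followed in RNA-seq of wing imaginal discs, together with every chromatin loop that carried either gene's name in the authors' loop lists. The pair made up 2 of the 17868 genes in the RNA table. Of 209 wing disc loops 1 was labelled with elB and noc, and of 186 embryo loops 0 were. The pair was chosen by its loop label and by its RNA levels in the 3 genotypes, with earlier results of these data in view, so the RNA levels and differences of elB and noc are given as a description, with no test. Its loop entered by its label, and the difference between genotypes at that loop was not part of the rule.

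The series asked what GAGA-associated factor (GAF), the product of Trithorax-like (Trl), contributes to chromatin contacts and transcription. Wing discs came from wandering larvae of the third instar whose GAF carried a Halo tag. The groups were the full-length tagged protein (Halo-Trl) and tagged GAF without its POZ domain (delta-POZ) or without its Q domain (delta-Q). RNA was taken from 30 discs per replicate (n = 3 libraries per genotype) and contact maps from 90 discs of homozygous larvae per replicate (n = 2 per genotype). Embryos aged 2 to 2.5 h were mapped in 4 libraries with GAF removed by deGradFP, which degrades GFP-tagged protein (labelled GAF(deGradFP)), and in 4 control libraries carrying sfGFP-tagged GAF (sfGFP-GAF(N) control). The labels give no shared background for the tagged lines, so a difference of line background and a difference of the GAF protein cannot be told apart. Every comparison with Halo-Trl used the same control libraries.

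elB and noc encode zinc finger proteins of the NET family, which bind the corepressor Groucho and act in repression of other genes. Both are known from the tracheal system, where they take part in the choice between branch types, and from legs and wings, where they act in the forming appendage against genes of the body wall. noc is named for its part in forming the ocelli, the simple eyes at the top of the head. GAF binds GAGAG-type sequences. Its POZ domain lets molecules of GAF assemble with each other, and its glutamine-rich Q domain lies at the other end of the protein.

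The RNA libraries held 57673928 to 85575887 reads in genes, the wing disc maps 23944 to 31995 contacts in listed loops and the embryo maps 1715 to 7347. RNA levels are given as CPM, the reads of a gene scaled to library size. The 3 Halo-Trl libraries held 51.3, 49.8 and 41.8 CPM of Trl itself, those of delta-POZ 78.4, 67.7 and 61.0, and those of delta-Q 56.6, 60.3 and 64.0. Trl was higher in delta-POZ (log2 fold change 0.54, SE 0.12, edgeR adjusted p = 0.0234), though 4 of 12 alternative settings lost this call. Reads summed over Trl say nothing of which domain is missing. The library delta-POZ 2 stood apart in some genes of the eye-antenna disc, though not in the marker eyes absent (eya). Its level of eya was 45.1 CPM, against 54.6 and 48.3 in delta-POZ 1 and 3. It held 37.0 CPM of twin of eyeless (toy), against 0.391 and 0.459 in the other delta-POZ libraries, and 17.7 CPM of ocelliless (oc), against 1.84 and 1.64. The differences of elB and noc in delta-POZ, their ratio, and the counts and medians of the lists around them are therefore also given without it.

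In wing discs elB was 3.77-fold lower and noc 2.08-fold higher in delta-POZ than in Halo-Trl, while in delta-Q both overlapped Halo-Trl. elB stood at 49.7, 40.8 and 52.7 CPM in the 3 Halo-Trl libraries, at 46.1, 32.4 and 32.8 in those of delta-Q and at 12.8, 12.5 and 12.7 in those of delta-POZ. Every delta-POZ library was below every library of the other 2 genotypes. Of the delta-Q libraries 1 lay inside the Halo-Trl range and 2 lay below it. The group means were 47.7 ± 6.20 CPM in Halo-Trl, 12.7 ± 0.157 in delta-POZ and 37.1 ± 7.75 in delta-Q (SD, n = 3 each). These levels rested on 2918 to 3709 reads per Halo-Trl library, 751 to 883 per delta-POZ library and 2006 to 3963 per delta-Q library.

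noc ran the other way. The Halo-Trl libraries stood at 128.7, 118.4 and 120.0 CPM, the delta-POZ libraries at 281.9, 271.0 and 211.6 and the delta-Q libraries at 125.7, 138.2 and 155.2. Every delta-POZ library was above every library of the other 2 genotypes, and delta-Q again overlapped Halo-Trl. The means were 122 ± 5.52 CPM in Halo-Trl, 255 ± 37.8 in delta-POZ and 140 ± 14.8 in delta-Q (SD, n = 3 each). Within delta-POZ the noc libraries spread more widely than the elB libraries did, and the lowest of them was still above the highest delta-Q library.

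**Figure D1:**
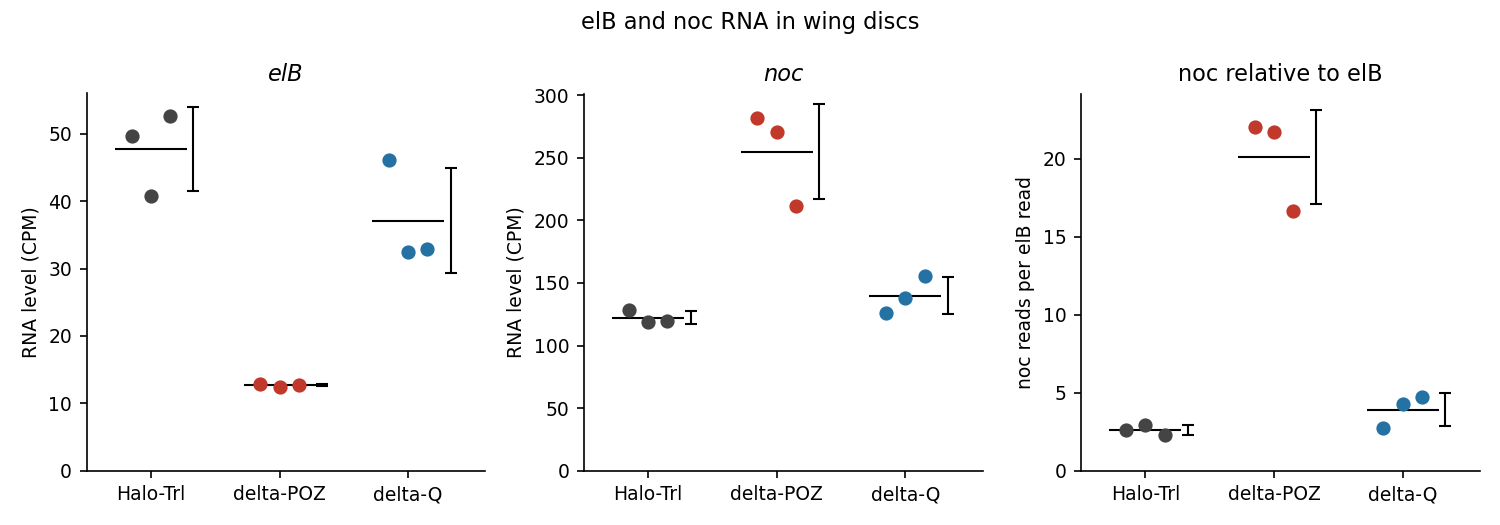
CPM of elB and of noc, and noc reads per elB read, in each of 9 wing disc RNA-seq libraries by genotype; points are libraries, lines group means and bars the SD (n = 3). The delta-POZ libraries sit at 12.5 to 12.8 CPM for elB and 211.6 to 281.9 for noc, outside the range of both other genotypes in each panel.

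On the log2 scale of the edgeR fit, elB differed by -1.91 between delta-POZ and Halo-Trl (SE 0.16). The difference of noc was 1.06 (SE 0.13). Without delta-POZ 2 these became -1.90 and 1.02. Among the 10359 genes tested, 349 had a lower log2 fold change than elB and 1265 a higher one than noc. The groups were separated for both genes, as they were for 33% of all genes in this comparison, and edgeR called 5.2% of genes lower and 4.93% higher. Nothing is read from the pair's place among them, since it was chosen with this contrast known.

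Between delta-Q and Halo-Trl, elB differed by -0.36 (SE 0.16) and noc by 0.19 (SE 0.13), the same signs as in delta-POZ at smaller size. Neither gene's groups were separated here, against 13.1% of all genes. The 2 deletion lines set against each other differed by 1.55 for elB (SE 0.16) and by -0.87 for noc (SE 0.13), delta-Q relative to delta-POZ, and without delta-POZ 2 by 1.51 and -0.84. Both genes were separated in that comparison, as were 24.2% of all genes, and edgeR called 4.6% of genes.

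The balance between the genes can be read within a library, where depth cancels. Halo-Trl held 2.59, 2.90 and 2.28 noc reads per elB read, delta-POZ 22.0, 21.7 and 16.7, and delta-Q 2.73, 4.26 and 4.73. The mean ratio was 2.59 ± 0.313 in Halo-Trl, 20.1 ± 3.01 in delta-POZ and 3.90 ± 1.05 in delta-Q (SD, n = 3 each). It was thus 7.77-fold higher in delta-POZ than in Halo-Trl, with all libraries apart, and 1.51-fold higher in delta-Q, with overlap. Without delta-POZ 2 its mean in delta-POZ was 19.3, which is 7.47-fold that of Halo-Trl. The ratio compares genotypes only, since transcript lengths were not used. The summed CPM of the pair came to 170 ± 9.86 in Halo-Trl, 267 ± 37.8 in delta-POZ and 177 ± 9.77 in delta-Q. In bulk discs, fewer cells expressing a gene and less RNA per cell cannot be told apart.

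The authors' deposited table of 1 RNA comparison, whose groups it does not name, gave elB a log2 fold change of -1.89 (standard error 0.17) and noc 1.08 (0.14). When delta-POZ was set against Halo-Trl with DESeq2, 10342 of 10355 genes came within 0.01 of that table.

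The wing disc loop labelled elB and noc joined 2L:14407501-14412500, the anchor listed with elB, to 2L:14488301-14493300, the anchor listed with noc, in the authors' coordinates. No label or header names the genome build. The anchors lay 80.8 kb apart, and 24 of the 209 disc loops were longer. No other disc loop shared either anchor. The loop was among the weaker ones of the list. In Halo-Trl 195 of 209 loops had more normalised contacts (contacts scaled to the mean library size), as did 23 of the 27 loops within 1.25-fold of its length.

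Contacts in the loop overlapped between the genotypes. The raw contacts were 36 and 71 with Halo-Trl, 31 and 50 with delta-POZ, 34 and 39 with delta-Q. Normalised, Halo-Trl had 34.3 and 62.1 contacts, delta-POZ had 32.8 and 43.5, and delta-Q had 38.4 and 47.1. Halo-Trl 2 was the highest of the 6 libraries, Halo-Trl 1 lay among the deletion lines, and all 3 genotypes overlapped. Groups were separated for 41.6% of disc loops between delta-POZ and Halo-Trl, 25.8% between delta-Q and Halo-Trl and 34% between the deletion lines. The means were 48.2 ± 19.6, 38.1 ± 7.57 and 42.8 ± 6.11 normalised contacts (SD, n = 2 each).

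In delta-POZ the loop differed from Halo-Trl by -0.33 on the log2 scale (SE 0.22, 95% interval -0.78 to 0.11, edgeR adjusted p = 0.620). In this comparison 4.31% of disc loops were called, all 9 of them lower. The direction rested on 1 library: without Halo-Trl 2 the log2 difference was 0.16, and without Halo-Trl 1 it was -0.69, neither called. In delta-Q the difference from Halo-Trl was -0.19 (SE 0.23, interval -0.64 to 0.26, edgeR adjusted p = 0.988), and it became 0.30 without Halo-Trl 2. Here 0 disc loops were called with edgeR or with DESeq2, and 4 had an unadjusted edgeR p under 0.05. Delta-Q and delta-POZ differed by 0.15 (SE 0.24, interval -0.33 to 0.62, edgeR adjusted p = 0.953), where 4.31% of loops were called. That sign turned to -0.028 without delta-POZ 1 and to -0.0034 without delta-Q 2. The intervals leave room for a change of the loop in either direction, and a difference was not detectable with these libraries.

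As a share of all loop contacts, the loop took 1.76 per 1000 in Halo-Trl (107 contacts, exact Poisson 95% interval 1.44 to 2.12), 1.38 in delta-POZ (81 contacts, 1.09 to 1.71) and 1.50 in delta-Q (73 contacts, 1.17 to 1.88). These intervals cover counting error only, and they overlap. The authors' deposited table gave the loop -0.34 in delta-POZ (standard error 0.39) and -0.19 in delta-Q (0.41), with adjusted p-values of 0.987 and 0.998.

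**Figure D2:**
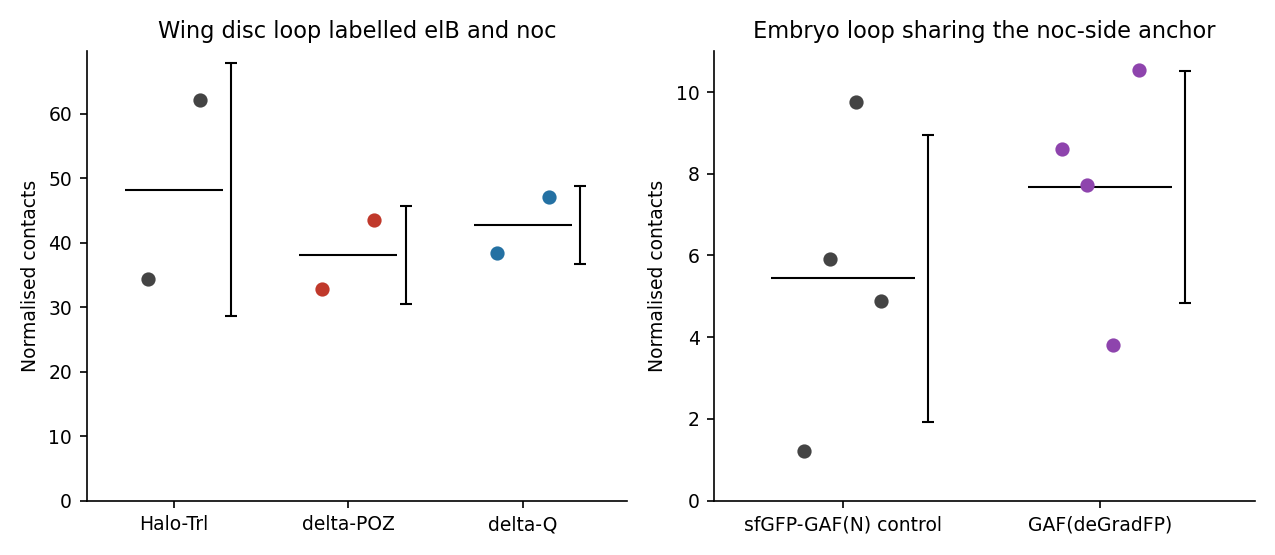
Normalised contacts per library for the wing disc loop labelled elB and noc (left, n = 2 per genotype) and for the embryo loop that shares its noc-side anchor (right, n = 4 per group); points are libraries, lines means and bars the SD. Groups overlap in both panels, and Halo-Trl 2 at 62.1 is the highest disc library.

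In embryos no loop carried the pair's names, but 1 unlabelled loop used the same noc-side region. It joined 2L:14443601-14445200 to 2L:14488401-14490000, a distance of 44.8 kb. Its second anchor lay inside the noc-side disc anchor. Its first anchor was centred 34.4 kb from the centre of the elB-side disc anchor, towards noc. This loop is described as a neighbour of the pair, since the authors gave it no gene.

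The embryo loop was sparse, with 1, 7, 3 and 6 contacts in the controls and 10, 10, 4 and 10 in the depleted embryos. Normalised contacts were 1.21, 5.91, 9.75 and 4.90 in the controls (5.44 ± 3.51, SD, n = 4) and 8.62, 7.73, 3.80 and 10.5 after depletion (7.67 ± 2.84, SD, n = 4). The groups overlapped, where 10.8% of embryo loops were separated. The highest control exceeded 3 of the 4 depleted libraries. It was control 3, whose value rests on 3 contacts in the shallowest map (1715 contacts in listed loops). The log2 difference was 0.65 (SE 0.50, 95% interval -0.37 to 1.67, edgeR adjusted p = 0.552), in a comparison where 2.69% of embryo loops were called. In the controls 180 of 186 loops had more normalised contacts, among them 42 of the 43 of like length. The share was 0.857 per 1000 contacts in the controls (17 contacts, interval 0.499 to 1.37) and 1.36 after depletion (34 contacts, 0.944 to 1.90). The authors' deposited table gave it a log2 fold change of 0.61 (standard error 0.61).

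No gene of the RefSeq table overlapped elB or noc, though the authors' counts may rest on another annotation. Between elB and noc the RefSeq table placed 8 genes whose names matched the RNA counts. The 5 nearest such genes on each outer side were added, 18 neighbours in all. Of these 9 had enough reads to be tested, 5 of them between the pair. In delta-POZ 1 neighbour rose and 0 fell against Halo-Trl, where 10.1% of all tested genes were called. In delta-Q 0 neighbours were called against Halo-Trl with edgeR, where 0.656% of all genes were called. Between the deletion lines 1 neighbour fell, in delta-Q, where 4.6% of all genes were called. The low read numbers of most neighbours limit what could be called.

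The neighbour that rose was Cpr35B, a cuticle protein gene that lies between the pair. Its levels were 4.02, 5.19 and 3.07 CPM in Halo-Trl, 2.70, 4.14 and 2.42 in delta-Q and 8.71, 9.81 and 9.68 in delta-POZ. Its delta-POZ libraries were above all others. The log2 difference was 1.20 in delta-POZ (SE 0.28, edgeR adjusted p = 0.0248), and the call was lost in 5 of 12 alternatives, without any 1 of Halo-Trl 1 or 3 or of the 3 delta-POZ libraries. Delta-Q lay below delta-POZ by a log2 difference of -1.61 (SE 0.28, edgeR adjusted p = 0.0123), a call lost without delta-POZ 3 or delta-Q 1. Without delta-POZ 2, 0 neighbours were called by edgeR.

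Beyond elB, the mismatch repair gene spel1 gave a log2 difference of -0.22 in delta-POZ (SE 0.15, edgeR adjusted p = 0.388), with overlapping groups. The sodium channel gene ppk next to elB gave 0.25 (SE 0.29, edgeR adjusted p = 0.638). Between the pair, lncRNA:CR44732 stood at 0.188, 0 and 0.0181 CPM in Halo-Trl and 1.04, 0.532 and 0.504 in delta-POZ. Its groups were separated, yet the difference did not pass (edgeR adjusted p = 0.132). Its delta-Q libraries, at 0.209, 0.954 and 0.539 CPM, were also above Halo-Trl.

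**Figure D3:**
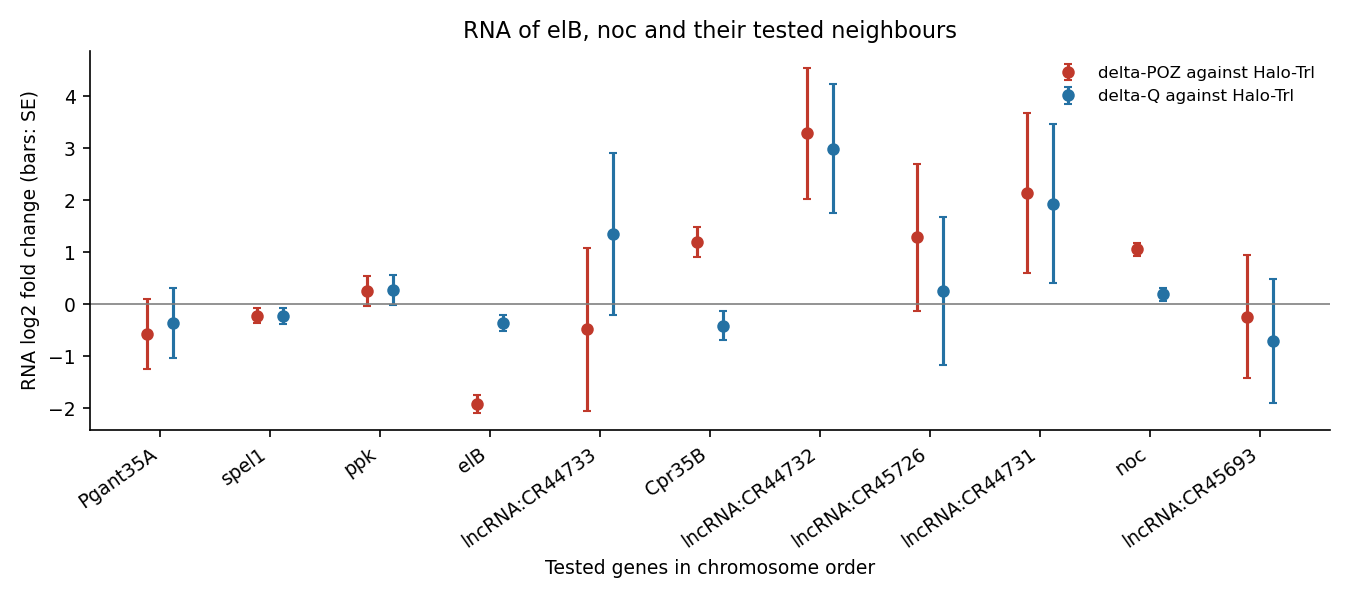
Log2 fold change against Halo-Trl with its SE (bars) for elB, noc and their tested neighbours in chromosome order, delta-POZ in red and delta-Q in blue. elB at -1.91 and noc at 1.06 lie on opposite sides of 0 in delta-POZ, and the neighbours with few reads have wide bars.

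Of the wing disc loops, 27 joined 2 different labelled genes that were both tested in RNA. The log2 fold changes of elB and noc in delta-POZ lay 2.97 apart and on either side of 0, against a median distance of 0.373 over the 27 pairs. elB and noc were chosen with these values known, so their place among the pairs is a description and supports nothing. Of the other pairs, 7 had a single gene called by edgeR and 19 had neither called, where 10.1% of all genes were called.

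The next widest pairs were chosen for mention after their values were seen. teashirt (tsh) and tiptop (tio), paralogous zinc finger genes of proximal limb identity, lay 2.72 apart, and their loop differed by -0.72 (edgeR adjusted p = 0.107). smal and Ddr, discoidin domain receptor genes, lay 2.38 apart, and their loop fell by 1.16 (edgeR adjusted p = 1.83e-05). esg and wor, Snail family genes, lay 1.88 apart, with neither gene called, and their loop fell by 1.34 (edgeR adjusted p = 3.69e-07). The elB and noc loop differed by -0.33, less than the loops of these 3 pairs, and it was not called. The pairs next in width had loop differences of either sign. CG12288 and ApepP lay 1.71 apart, with a loop difference of 0.09. For scyl and chrb these values were 1.59 and -1.25, for H15 and mid 1.45 and 0.33, and for ru and rho 1.00 and 0.04.

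**Figure D4:**
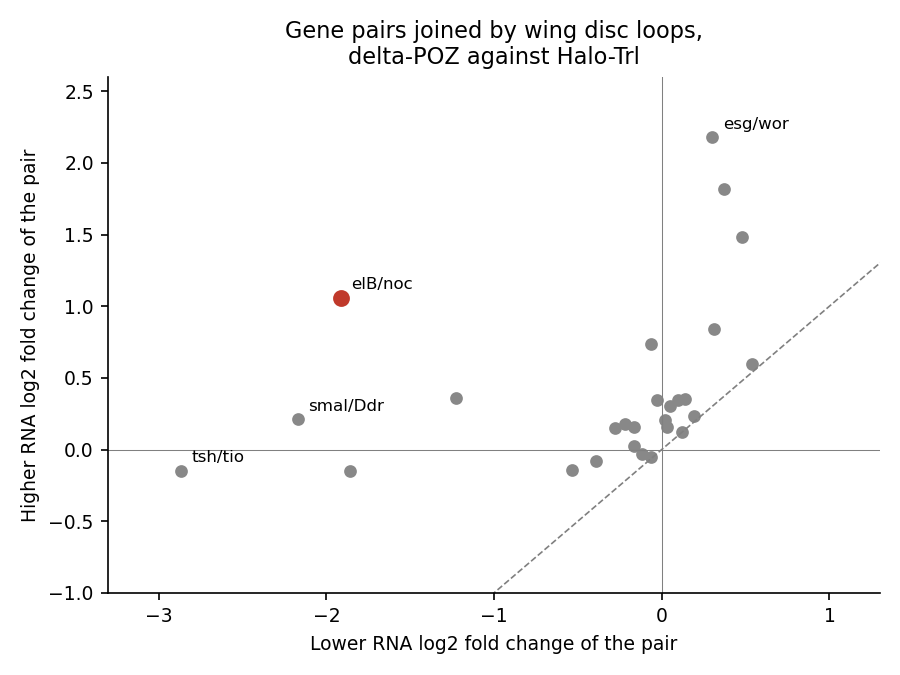
Each point is 1 of 27 gene pairs joined by a wing disc loop, placed by the lower and the higher log2 fold change of its genes in delta-POZ against Halo-Trl; the line marks equal values. The elB and noc pair sits at -1.91 and 1.06, 2.97 apart.

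Genes chosen for a known link to elB and noc, or to GAF, were read as lists. Of 30 genes that mark proximal and distal domains of limbs and wing, 0 rose and 2 fell in delta-POZ, near the 5.2% of all tested genes called lower and 4.93% called higher, with a median log2 difference of -0.02 against -0.01 over all tested genes. The genes that fell were tio and araucan (ara), an Iroquois gene. tio stood at 83.7, 99.9 and 96.0 CPM in Halo-Trl, 28.5, 30.5 and 31.2 in delta-Q and 11.8, 13.5 and 13.0 in delta-POZ. All 3 genotypes were apart. Of all genes, 33% were separated between delta-POZ and Halo-Trl, 13.1% between delta-Q and Halo-Trl and 24.2% between the deletion lines. Its log2 difference from Halo-Trl was -2.87 in delta-POZ (SE 0.11, edgeR adjusted p = 1.22e-06) and -1.63 in delta-Q (SE 0.11, edgeR adjusted p = 9.72e-05), and both calls held in all 12 alternatives. tio was the list member called in delta-Q, where 0.656% of all genes were called and elB and noc overlapped Halo-Trl.

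ara differed by -0.39 in delta-POZ (SE 0.10, edgeR adjusted p = 0.0319), and 7 of 12 alternatives lost the call, among them the one without delta-POZ 2. The highest value of the list in delta-POZ, 3.99 for Lim1, was not called. Lim1 stood at 16.5 CPM in delta-POZ 2, against 0.0435 and 0.0148 in the other delta-POZ libraries. Some other genes of the list gave small differences in delta-POZ. They were 0.05 for homothorax (hth) and -0.15 for tsh, both proximal, and -0.12 for Distal-less (Dll), which marks distal cells. vestigial (vg), the wing selector gene, gave -0.07. None of these passed the test.

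The counts of the other lists also stand beside 10.1% of all tested genes called in delta-POZ. With so few genes a list, none is read as different from that share. The 4 spalt and knirps genes, which pattern tracheal branches and wing veins, had 0 calls and a median of 0.09 in delta-POZ. Of 7 genes for Groucho, its partners and other corepressors 1 rose and 0 fell (median -0.08). Groucho itself (gro) gave 0.00, and the gene that rose was hairy (h), a Groucho-binding repressor. h differed by 0.52 (SE 0.11, edgeR adjusted p = 0.0149), a call lost without any 1 of the 3 Halo-Trl libraries. Of 21 Dpp and Wingless pathway genes, the signals that induce elB and noc in appendages, 0 were called by edgeR (median 0.02), with dpp at 0.20 and wg at -0.01. Of 8 ocellar and eye genes 0 were called (median 0.32), and their widest values, for toy and oc, came from delta-POZ 2 alone. Of 8 genes for GAF and its partners 1 rose, Trl (median -0.09), and 0 were called without delta-POZ 2. In delta-Q against Halo-Trl none of these 5 lists held a called gene, where 0.656% of all genes were called. Without delta-POZ 2 the medians in delta-POZ were -0.03 for the limb and wing domains, 0.09 for spalt and knirps, -0.04 for Groucho, 0.06 for Dpp and Wingless, 0.20 for the ocellar and eye genes and -0.03 for GAF.

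**Figure D5:**
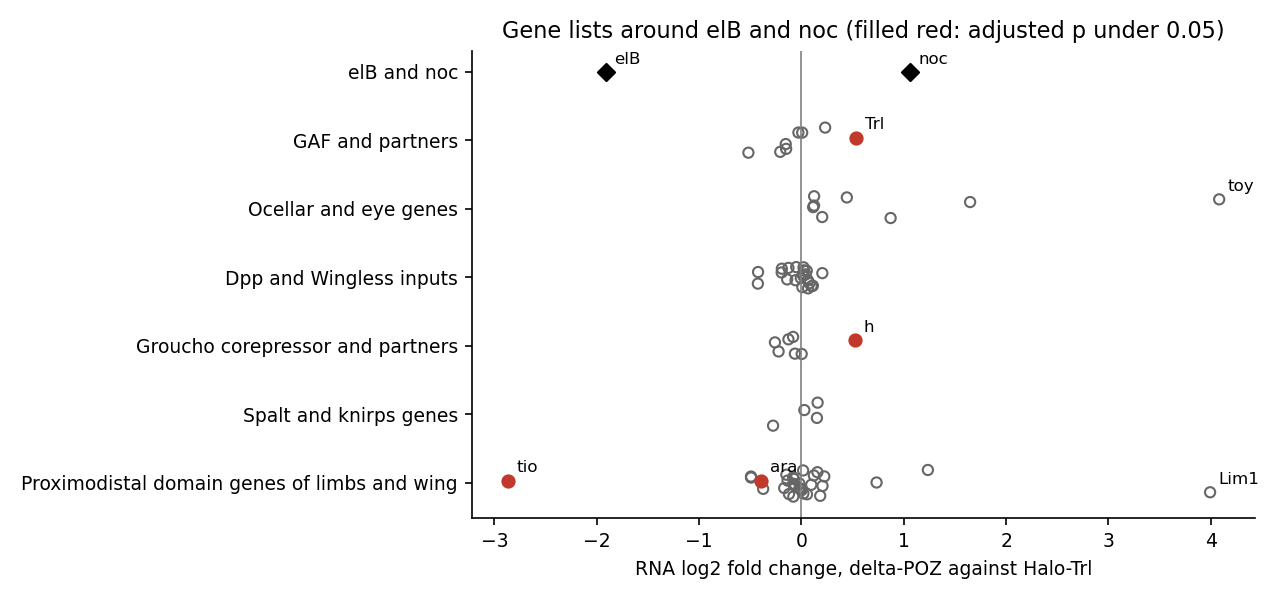
Log2 fold change in delta-POZ against Halo-Trl of each tested gene in 6 lists around elB and noc; each circle is a gene, filled red where called at an adjusted p under 0.05, and black diamonds are elB and noc. Medians lie between -0.09 and 0.32, and tio at -2.87 is the lowest filled circle.

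Markers of other cells in the dissected discs moved in part with genotype. The summed CPM of 6 wing epithelium markers was 2187 to 2692 in Halo-Trl, 1812 to 2327 in delta-POZ and 2006 to 2555 in delta-Q. That of 5 muscle precursor markers was 209 to 243, 279 to 327 and 226 to 247 in the same order, and zfh1 was the 1 of 5 that rose in delta-POZ (log2 0.75, edgeR adjusted p = 0.0209, lost in 5 of 12 alternatives). That of 5 tracheal markers was 983 to 1214, 1251 to 1547 and 1063 to 1229, where Gasp rose (log2 0.60, edgeR adjusted p = 0.0235, lost in 4 of 12), while trachealess (trh) gave -0.12 and btl -0.22. Neither zfh1 nor Gasp was called without delta-POZ 2. With all libraries, edgeR called 4.93% of all tested genes higher in delta-POZ. Both sums were higher in every delta-POZ library than in every Halo-Trl library, in a comparison where 33% of all genes were separated. Single markers did not all follow their sum. The lowest muscle marker gave -0.20, and trh and btl were lower among the tracheal ones.

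Blood cell markers (6 genes) summed to 166 to 365 CPM in Halo-Trl, 194 to 680 in delta-POZ and 299 to 785 in delta-Q, and NimC1 was the 1 of 6 that rose in delta-POZ (log2 3.02, edgeR adjusted p = 0.0150, lost without Halo-Trl 2 or 3). Fat body markers (5 genes) summed to 8.0 to 2822, 14.4 to 41.9 and 381 to 4466 CPM. Their sum was higher in every delta-Q than in every delta-POZ library, where 24.2% of all genes were separated and 0 of the 5 were called. In Halo-Trl 1 the marker Fbp1 stood at 1477 CPM, against 3.60 and 14.5 in Halo-Trl 2 and 3. Haltere and leg markers (3 genes) summed to 162 to 195, 157 to 182 and 145 to 193. Eye-antenna markers (4 genes) summed to 42.6 to 46.6, 49.3 to 88.3 and 41.3 to 46.0, the highest in delta-POZ 2. The calls of zfh1, Gasp and NimC1 stand beside 4.93% of all tested genes called higher in delta-POZ. With so few genes a list, none is read as different from that share. No marker of these 7 lists was at 0 reads throughout a genotype. The part of other cells in the levels of elB and noc was not tested.

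The genes whose levels followed the pair most closely over the 9 RNA libraries were found by Pearson correlation of log2 CPM among 6942 genes. This is a description over libraries that share 3 genotypes, and choice by correlation with elB or noc over them fixes the direction of the genes found. Closest to elB were nclb (r = 0.986), RIOK1 (0.985), CG10286 (0.985), l(2)k09022 (0.985) and CG18547 (0.983). All 5 were lower in delta-POZ, by log2 differences from -1.04 for CG10286 to -7.11 for CG18547. CG18547 went from a mean of 17.9 CPM in Halo-Trl to 0.129 in delta-POZ and 6.61 in delta-Q. Closest to noc were gzl (r = 0.988), PAN3 (0.979), CG16824 (0.978), nAChRalpha3 (0.975) and mtd (0.974). All 5 were higher in delta-POZ, by 0.32 for mtd to 2.48 for nAChRalpha3, a nicotinic acetylcholine receptor subunit that averaged 0.986 CPM in Halo-Trl and 5.51 in delta-POZ. nAChRalpha3 and CG16824 (1.38 CPM in Halo-Trl, 4.67 in delta-POZ) reached the required mean level through their delta-POZ libraries.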

How the data were processed

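Of the series' samples, 9 wing disc RNA-seq libraries, 6 wing disc contact maps and 8 embryo contact maps were used, and 7 CUT&Tag samples were not analysed here. The authors deposited raw counts of reads per gene and of contacts per loop. For RNA-seq the tools in the submitters' processing notes are featureCounts and DESeq2, and for the maps BWA, bedtools and DESeq2. Not given in the sources used here: versions, genome build, loop caller, name of the contact assay and strand setting. Tables of the authors' own comparisons hold, per the file headers, scores (mean and statistic), log2 fold changes, their standard errors and p-values, raw and adjusted. Columns named wt in the disc table were taken as Halo-Trl, the genotype left without columns of its own, and those named GAF_KO and GFP_GAF in the embryo table as GAF(deGradFP) and the sfGFP-GAF(N) control. Empty cells of embryo contacts (6) were read as 0.

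The test of counts was that of edgeR 4.0.16 under R 4.3.3 (quasi-likelihood F test, TMM, genotype as the only term, all groups of an assay in 1 fit). RNA genes passed filterByExpr, and loops needed 10 contacts over all libraries. P-values were adjusted by Benjamini-Hochberg over all features of a comparison and called under 0.05. The SE of a log2 difference is its size divided by the square root of F. CPM use effective library sizes, and normalising over loops makes loop differences relative to the other loops. Means carry the SD over libraries. The labels call the disc replicates biological. For embryos they do not say so, and p-values there measure the spread between libraries, which may be technical. The test was tried on simulated counts.

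The named genes are the pair, its neighbours, called members of each list (or its most abundant ones as values) and the 5 genes closest to each by correlation with a mean log2 CPM of at least 1. dpp, wg, hth, Dll, vg, Lim1, eya, Fbp1, gro, trh, btl, spel1, ppk and lncRNA:CR44732 were picked for mention after their values were seen. The members and lists were chosen with earlier results of these data known. Of the names in the lists 112 of 113 matched the RNA table. Gene order came from RefSeq (assembly Release 6 plus ISO1 MT), used for names, neighbours and gene overlap alone. Alternatives were RLE normalization, no mitochondrial genes, unscaled loop totals, no filter, DESeq2 1.42.0, only the groups compared, a replicate block and leaving out each replicate. Counts, medians and the read ratio without delta-POZ 2, crossed disc replicate numbers and summed embryo controls 2 and 3 were added after the data were seen. No difference beyond sampling noise was detected between those controls (chi-square over its degrees of freedom 1.02, p = 0.403). Control 3 held only 1715 contacts, so a difference could have been missed.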

Additional observations from a re-analysis of the deposited data

How the results depend on the processing

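elB and noc kept their direction in all 12 alternatives of each RNA comparison. Their values ran from -2.02 to -1.84 and 0.98 to 1.17 in delta-POZ, -0.55 to -0.27 and 0.11 to 0.26 in delta-Q. The pair was chosen with the RNA levels of these libraries known, so this is a description and supports nothing. The disc loop of the pair was never called, and its sign reversed without single libraries (the cause was not tested): leave-one-out values ran from -0.69 to 0.16 in delta-POZ and -0.54 to 0.30 in delta-Q, both positive without Halo-Trl 2, and from -0.028 to 0.38 for delta-Q against delta-POZ, which was -0.028 without delta-POZ 1 and -0.0034 without delta-Q 2. The embryo loop ran from 0.34 to 0.86 over 14 alternatives, never called, and gave 0.70 with controls 2 and 3 summed. Counts of all called genes moved more. Against 1050 in delta-POZ, DESeq2 called 1637 and leaving out 1 replicate 411 to 827. Against 68 in delta-Q, DESeq2 called 232, the replicate block 45 and leave-one-out 21 to 57. Against 477 between the deletion lines, DESeq2 called 995, a fit of only those lines 263 and leave-one-out 237 to 364. Against 9 disc loops between the deletion lines DESeq2 called 5 and leave-one-out 6. Against 5 embryo loops DESeq2 and the replicate block called 3 each and leave-one-out 1 to 16, the most without GAF(deGradFP) 4. Replicate numbers gave little sign of pairing the samples (correlations of deviations -0.14 to 0.20 for RNA, -0.26 to -0.06 for discs, -0.10 to 0.18 for embryos). Of these, 1 of 9 RNA pairs and 1 of 4 embryo pairs were over 0.1. With 2 disc maps per genotype, crossing the numbers reverses the sign of the disc values. The replicate block gave the disc loop -0.33 in delta-POZ and the embryo loop 0.74, and with crossed disc numbers 10 loops were called in delta-POZ and 0 in delta-Q. The loops rest on 31 to 71 contacts per disc library and 1 to 10 per embryo library; what counting error and replicate spread each add was not tested.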
